A study of Mus musculus with 6 samples.

Results

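The small leucine-rich proteoglycans (SLRPs) are secreted proteins with a core of leucine-rich repeats, most of which carry chondroitin, dermatan or keratan sulfate chains. Here 10 SLRP genes were followed: Dcn, Bgn and Aspn of class I, Lum, Fmod, Prelp, Kera and Omd of class II, Ogn of class III and Podn of class V. Members were taken by their annotated gene symbol, with the brightest row of a gene where it had several. Each of the 10 had 1 row of its own, among 30741 genes tested.

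RNA came from hair follicle stem cells (HFSCs) sorted as CD34+/α6-integrin+ cells from back skin of female mice aged 35 postnatal days (PD35). There were 3 arrays of Dab2-cKO mice (K14CreER+/- with both Dab2 alleles floxed) and 3 arrays of WT mice (K14CreER-/-, also Dab2 fl/fl), on a B6;129S4-Dab2tm1Cpr/J background. Both groups had received intraperitoneal tamoxifen at 75 mg/kg on 5 days, so the agent does not separate them. The keratin 14 promoter drives Cre in basal epidermal and outer root sheath cells at large, not in HFSCs alone, and the sources used here do not say how many mice gave RNA to each array. The study describes WT follicles at PD35 as in anagen II and Dab2-cKO follicles as still in telogen, so genotype and hair cycle phase cannot be told apart in this contrast. Values are log2 array signals.

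SLRPs are best known from connective tissue. They bind collagen fibrils and set their width and spacing, and several of them hold growth factors of the TGF-β and BMP families near the cell surface. In skin the dermal fibroblast is their main source, and decorin, the product of Dcn, is the most plentiful SLRP of the dermis. Keratinocytes are not known as a major source of most members.

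The labels were first set against the targeted gene. Dab2, an endocytic adaptor, measured 8.87, 8.76 and 8.94 in the arrays labelled Dab2-cKO, against 6.61, 6.49 and 6.46 in the WT arrays. The difference was 2.34 ± 0.08 (SE; limma, adjusted p = 1.4e-05), which goes against the label. Whether the probes of this row lie within the deleted part was not checked, so the values do not settle whether the labels hold. Every direction below therefore rests on the labels, and "Dab2-cKO arrays" means the arrays labelled so. Signal below 7.26, the 95th percentile of the mean signal of 1532 olfactory and vomeronasal receptor genes, is called background. Dab2 was under it in all WT arrays, so the size of its difference is not measured. That floor was not level: the median of the receptor genes was 4.52 to 4.75 in the Dab2-cKO arrays and 5.36 to 5.54 in the WT arrays. Arrays of 1 group correlated at r = 0.991 or more over genes, and arrays of different groups at 0.936 or less.

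Most SLRP genes lie beside each other in the mouse genome. By the RefSeq annotation, 8 of the 10 stand in 3 runs with other family genes, in which no other protein-coding gene lies wholly between members (Cenpp overlaps the run on chromosome 13): Optc, Prelp and Fmod on chromosome 1, Dcn, Lum, Kera and Epyc on chromosome 10, and Ecm2, Aspn, Omd and Ogn on chromosome 13. Bgn is on chromosome X and Podn on chromosome 4. RefSeq upstream sequences matched 8 of the 10 members. Dcn and Lum had no entry. The run on chromosome 13 is shown in its order, because 3 of its genes were higher in the Dab2-cKO arrays while Omd, between them, was not called. Omd was under background in both groups, and some other scalings of the arrays did call it higher. Its missing call is therefore not a measured lack of difference. Each line gives the 250 bases before the annotated start (GRCm38.p6), 5′ to 3′. Capitals mark matches on either strand to TATAAA, the core promoter box, to CCAAT, to the GC box GGGCGG or to the AP-1 site TGANTCA.
Ecm2, chr13:49504560-49504809, plus strand: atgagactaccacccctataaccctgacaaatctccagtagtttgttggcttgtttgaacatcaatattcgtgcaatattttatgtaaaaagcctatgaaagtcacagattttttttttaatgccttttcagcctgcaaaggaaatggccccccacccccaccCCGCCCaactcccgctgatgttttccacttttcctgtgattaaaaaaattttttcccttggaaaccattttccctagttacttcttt
Aspn, chr13:49544193-49544442, plus strand: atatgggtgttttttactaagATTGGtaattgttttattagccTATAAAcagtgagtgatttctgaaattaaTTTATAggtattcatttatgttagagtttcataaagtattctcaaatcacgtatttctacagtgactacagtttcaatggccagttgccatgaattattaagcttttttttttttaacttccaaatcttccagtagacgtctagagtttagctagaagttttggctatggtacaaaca
Omd, chr13:49582212-49582461, plus strand: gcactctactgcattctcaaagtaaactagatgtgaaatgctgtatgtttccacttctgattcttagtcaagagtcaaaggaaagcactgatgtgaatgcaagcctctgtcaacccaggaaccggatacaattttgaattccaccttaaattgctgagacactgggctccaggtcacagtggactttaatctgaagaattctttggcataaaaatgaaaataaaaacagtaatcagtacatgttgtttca
Ogn, chr13:49607765-49608014, plus strand: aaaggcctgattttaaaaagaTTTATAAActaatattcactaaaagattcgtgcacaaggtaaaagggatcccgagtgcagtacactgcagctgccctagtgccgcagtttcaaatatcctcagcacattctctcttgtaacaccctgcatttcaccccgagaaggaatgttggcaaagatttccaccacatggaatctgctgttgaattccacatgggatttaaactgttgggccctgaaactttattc

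Of 32851 upstream windows of the same length, 12.4% held the TATA box, 33.8% CCAAT, 32.7% the GC box and 6.7% the AP-1 site on either strand. In this run no motif was shared by all 4 windows, and no AP-1 site match was found in any of them. The Ecm2 window held 1 GC box match. Aspn held 2 TATA box matches, the first base of the nearer one lying 178 bases before the start, and 1 CCAAT match. The Ogn window held 2 TATA box matches that overlap each other, and the Omd window held no match to any motif searched. GC content was 40.0%, 30.0%, 38.4% and 42.0% in the order printed, against a median of 52.4% over all windows. These are letter matches and describe the windows only.

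Signal of 9 of the 10 SLRP genes was higher in Dab2-cKO HFSC arrays than in WT arrays (limma, adjusted p under 0.05 over all genes), and none was lower. Over all genes tested, 18.2% were called higher and 32.4% lower. The exception was Omd. In all 10 genes every Dab2-cKO array lay above every WT array, a pattern that 22.2% of all genes showed. The median difference of the 10 was 1.94, against -0.14 over all genes. Of the 9 called members, 5 were above background in both groups, 3 in the Dab2-cKO arrays alone, and Fmod in neither.

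**Figure D1:**
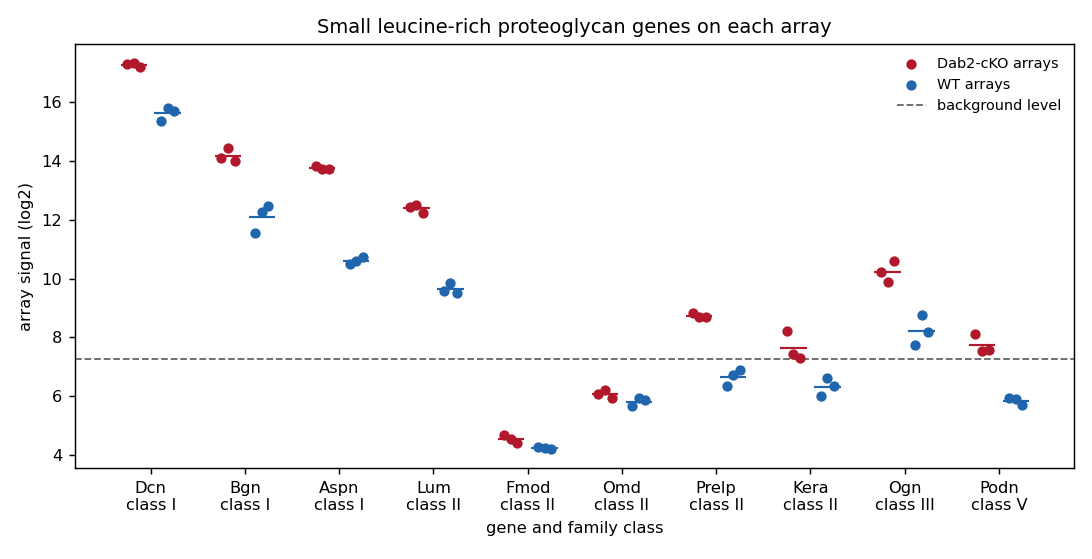
Log2 array signal of the 10 SLRP genes (y axis), ordered by family class (x axis); each point is 1 array, short lines are group means (n = 3 each) and the dashed line is the background level of 7.26. Within each gene the 3 Dab2-cKO points lie above the 3 WT points, and Fmod and Omd stay under the dashed line in both groups; heights of different genes are not comparable, since their probes differ.

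Dcn, Bgn and Aspn make up class I, the members whose cores bear chondroitin or dermatan sulfate (asporin, the Aspn product, carries an aspartate stretch and no such chain). Dcn measured 17.29, 17.31 and 17.19 in Dab2-cKO arrays, against 15.36, 15.80 and 15.68 in WT arrays. It was higher in every Dab2-cKO array, by 1.65 ± 0.13 (SE), a fold of 3.14, with limma's adjusted p = 1.9e-04. Bgn encodes biglycan, the closest relative of decorin and a ligand of Toll-like receptors when it is free of matrix. It measured 14.08, 14.45 and 13.99 in Dab2-cKO arrays and 11.56, 12.27 and 12.46 in WT arrays. WT replicate 1 lay apart below the other WT arrays, and the groups did not overlap (difference 2.08 ± 0.25, 4.22-fold, limma adjusted p = 0.0010). Aspn encodes a collagen-binding member that restrains TGF-β and BMP2 signalling in cartilage and bone. It measured 13.83, 13.71 and 13.73 in Dab2-cKO arrays, against 10.49, 10.60 and 10.73 in WT arrays. That was the widest gap among the 10 members, with the smallest SE, at 3.15 ± 0.09 or 8.88-fold (limma adjusted p = 6.3e-06), and 0.563% of all genes had a larger difference.

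Class II, whose members carry keratan sulfate or none, was divided. Lum, lumican, spaces collagen fibrils in cornea and skin. Its signal was 12.42, 12.50 and 12.24 in Dab2-cKO arrays, against 9.57, 9.83 and 9.50 in WT arrays, a difference of 2.75 ± 0.12 (6.73-fold, limma adjusted p = 2.6e-05). Prelp encodes an arginine- and proline-rich member that binds basement membrane heparan sulfate. It measured 8.83, 8.71 and 8.69 in Dab2-cKO arrays and 6.35, 6.72 and 6.88 in WT arrays. The WT arrays were all under the background level, so the measured difference of 2.09 ± 0.14 stands for at least 2.79-fold (limma adjusted p = 1.3e-04). At-least folds set the brighter group's mean against the background level. Kera encodes keratocan, known from the corneal stroma. It measured 8.22, 7.43 and 7.31 in Dab2-cKO arrays, against 6.02, 6.62 and 6.34 in WT arrays, again with WT under background. Replicate 1 of the Dab2-cKO arrays stood above the other two, and the difference was 1.33 ± 0.27, at least 1.31-fold (limma adjusted p = 0.0081).

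Fmod and Omd, the other class II members, were dim throughout. Fmod encodes fibromodulin, a fibril-binding member abundant in tendon, and Omd encodes osteomodulin, known from bone and tooth. Fmod measured 4.70, 4.55 and 4.41 in Dab2-cKO arrays, against 4.29, 4.26 and 4.21 in WT arrays (difference 0.30 ± 0.09, limma adjusted p = 0.037). Omd measured 6.08, 6.23 and 5.95 in Dab2-cKO arrays, against 5.66, 5.94 and 5.87 in WT arrays (difference 0.26 ± 0.11, limma adjusted p = 0.091). Both lay below background in both groups, so no fold is given. Neither direction holds under all scalings: with arrays centred on positive control rows the differences were -0.05 for Fmod and -0.08 for Omd.

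Ogn and Podn represent the remaining classes. Ogn, osteoglycin or mimecan, is a small member with fewer repeats. Its signal was 10.21, 9.89 and 10.59 in Dab2-cKO arrays, against 7.76, 8.76 and 8.18 in WT arrays. Its SE was the largest of the 10, and the difference was 2.00 ± 0.29, or 3.99-fold (limma adjusted p = 0.0020). Podn encodes podocan, which slows smooth muscle growth in mouse arteries. It measured 8.12, 7.53 and 7.56 in Dab2-cKO arrays, against 5.93, 5.92 and 5.71 in WT arrays, with all 3 WT arrays under background. The difference was 1.88 ± 0.17, at least 1.39-fold (limma adjusted p = 3.7e-04).

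**Figure D2:**
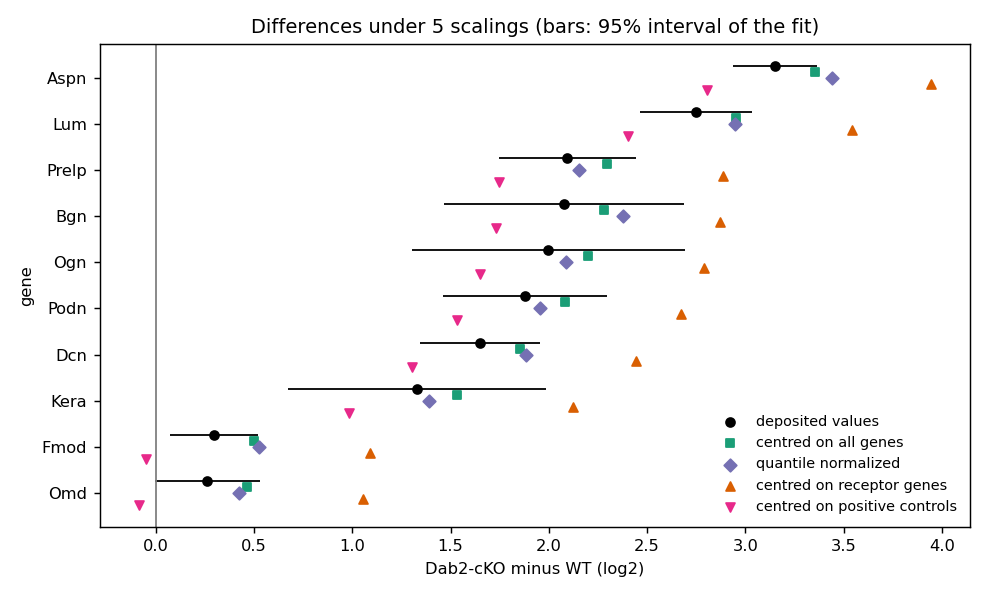
Dab2-cKO minus WT difference in log2 signal (x axis) of each SLRP gene (y axis) with the deposited values (black, with the 95% interval of the limma fit, n = 3 each) and under 4 other scalings of the arrays. Apart from Fmod and Omd, the genes lie right of 0 under all 5 scalings, from 0.98 for Kera with positive control rows to 3.94 for Aspn with receptor genes, while Fmod and Omd cross 0 under the positive control scaling; Prelp, Kera and Podn are above background in the Dab2-cKO arrays alone.

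The scaling of the arrays moves all genes together, and its effect was read beside the members. Centring each array on the median of all genes shifted the median difference of all genes by 0.20, quantile normalization by 0.18, centring on receptor genes by 0.79 and centring on positive control rows by -0.35. Of all genes, 28.0% were called higher and 19.8% lower with median centring, 26.4% and 21.0% with quantile normalization, 73.4% and 7.81% with receptor genes, and 8.45% and 51.9% with positive control rows. The share of calls that were higher was 36.1% as deposited and 58.5%, 55.7%, 90.4% and 14% under those 4 scalings. Under all 4, Dcn, Lum, Bgn, Ogn, Prelp, Aspn, Kera and Podn were called higher. Omd was called higher under the first 3.

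Ratios of adjacent genes within an array were read next, since centring an array on any set of genes leaves them unchanged (quantile normalization does not). Dcn and Lum on chromosome 10 were the only adjacent pair of the 8 compared with both genes above background in both groups. Their log2 ratio, Dcn to Lum, was 4.88, 4.81 and 4.95 in Dab2-cKO arrays, against 5.79, 5.97 and 6.18 in WT arrays. It was lower by 1.10 on average and the groups did not overlap, so Lum differed more than its neighbour. The exact two-sided permutation p was 0.10, the smallest that 3 against 3 allows (0.11 after Benjamini-Hochberg over 8 pairs), so no pair could pass the threshold. In the other 7 pairs at least 1 gene lay under background in a group, and the change of their ratio cannot be sized. For Ecm2 to Aspn the groups overlapped, at -3.00, -3.50 and -3.41 in Dab2-cKO arrays and -3.88, -3.63 and -3.48 in WT arrays (exact p = 0.20).

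**Figure D3:**
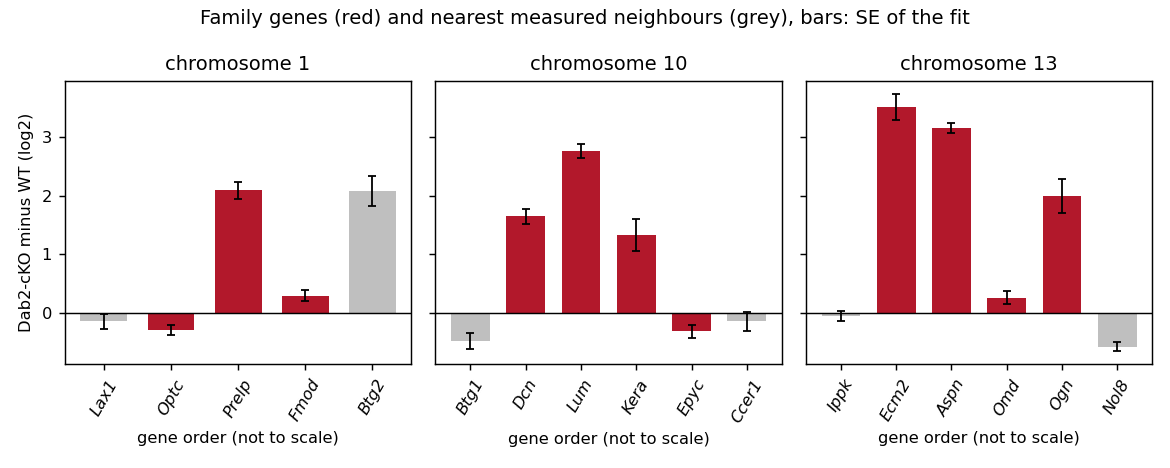
Dab2-cKO minus WT difference in log2 signal (y axis; error bars, SE of the limma fit, n = 3 each) of the genes in the 3 runs, in chromosome order but not to scale (x axis), with family genes in red and the nearest measured protein-coding neighbour on each side in grey. On chromosome 13 Ecm2, Aspn and Ogn stand at 3.51, 3.15 and 2.00 with Omd, under background in both groups, at 0.26 between them. Of the 6 grey genes only Btg2, under background in the WT arrays, is well above 0.

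The genes just outside the runs were read in the same way. Btg2, an antiproliferative gene next to Fmod, measured 7.26, 7.94 and 8.11 in Dab2-cKO arrays and 5.45, 6.05 and 5.58 in WT arrays. It was higher by 2.08 ± 0.26 (limma adjusted p = 0.0011), but the WT arrays were under background, so the difference cannot be sized. Nol8, a nucleolar protein gene beyond the chromosome 13 run, was lower by 0.57 ± 0.08 (limma adjusted p = 0.0019). Btg1 on chromosome 10 was lower by 0.47 ± 0.13 (limma adjusted p = 0.026). Centring on receptor genes raised every difference by 0.79, more than the size of either, so neither direction holds under all scalings. Btg1 lay under background in both groups, where the receptor genes were lower in the Dab2-cKO arrays too. Lax1, Ccer1 and Ippk, also under background in both groups, did not pass the test. Cenpp, a centromere protein gene whose span overlaps the chromosome 13 run, measured 6.56, 6.40 and 6.46 in Dab2-cKO arrays, against 6.60, 6.70 and 6.64 in WT arrays (-0.17 ± 0.08, limma adjusted p = 0.10).

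Of 8 further family genes, 7 had a row of their own, and Tsku was not analysed here. Ecm2, whose product resembles the SLRPs in its repeats, was the only one above background. Its signal was 10.83, 10.21 and 10.32 in Dab2-cKO arrays, against 6.61, 6.97 and 7.25 in WT arrays. The difference, 3.51 ± 0.22 (limma adjusted p = 9.5e-05), was larger than that of any of the 10 members and stands for at least 9.13-fold. Epyc, Optc and Nyx were called lower, by 0.29 to 0.35 on the log2 scale, and Chad, Podnl1 and Chadl did not pass the test. All 6 lay below background in both groups, where the receptor genes were lower in the Dab2-cKO arrays too. With receptor centring these 6 turned direction and all 7 were called higher, beside 73.4% of all genes.

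The collagens that SLRPs bind were higher with them. Of 17 fibrillar collagens and fibril partners, 15 were higher and 1 lower, beside 18.2% and 32.4% of all genes. The median difference of the 17 was 1.29. Col1a1, a chain of type I collagen, measured 14.16, 13.77 and 14.21 in Dab2-cKO arrays and 11.33, 11.99 and 12.02 in WT arrays (2.27 ± 0.22, 4.81-fold). Col1a2 was 7.05-fold and Col3a1, type III collagen, 10.3-fold higher. In Col3a1 the Dab2-cKO arrays spread widely, at 12.42, 11.05 and 13.30, against 8.59, 9.11 and 8.99 in WT arrays. Tnxb, tenascin X, which also spaces fibrils, was at least 6.22-fold higher. Limma's adjusted p for these 4 ran up to 0.0030.

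Enzymes that build the sugar chains were mostly dim. Of 21 genes of chondroitin and dermatan sulfate synthesis (median difference 0.14), 8 were higher and 1 lower, beside 18.2% and 32.4% of all genes. Of the 21, 16 were under background in both groups, and 4 of the 8 higher genes lay above it in a group. Fam20b, the xylose kinase that lets a chain extend, measured 9.71, 9.45 and 9.30 in Dab2-cKO arrays and 8.07, 8.15 and 8.07 in WT arrays, 2.61-fold higher. Dse, the epimerase that turns chondroitin into dermatan sulfate, was 2.12-fold higher and its relative Dsel 1.35-fold. Of 9 genes of keratan sulfate synthesis, 5 were higher and 1 lower, beside the same shares of all genes, and 7 were under background in both groups. B4galt1, a galactosyltransferase, was 1.32-fold higher. These counts rest on the scaling: with positive control rows 4 of the 21 and 2 of the 9 were higher, where 8.45% of all genes were, and with receptor genes 20 and 9, where 73.4% of all genes were.

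Partners and proteinases of SLRPs were mixed. Of 15 growth factors and receptors that SLRPs bind, 8 were higher and 2 lower, beside 18.2% and 32.4% of all genes. Of the 15, 10 were under background in both groups. Tgfb3, a TGF-β ligand, was at least 3.43-fold higher, Mstn, myostatin, 2.78-fold, and Lrp1, an endocytic receptor of decorin, 3.96-fold. Kdr, the VEGF receptor that decorin engages, was at least 1.76-fold higher. Egfr, the epidermal growth factor receptor that decorin binds, was named after its values were seen, as the lower gene above background. It measured 9.80, 9.73 and 9.75 in Dab2-cKO arrays, against 10.83, 11.09 and 10.96 in WT arrays, 2.30-fold lower (limma adjusted p = 1.5e-04). Of 11 proteinases that cleave SLRPs, 6 were higher and 1 lower, beside the same shares of all genes, and 7 were under background in both groups. Mmp2 measured 10.05, 9.78 and 9.92 in Dab2-cKO arrays, against 6.52, 6.94 and 6.96 in WT arrays, at least 6.29-fold higher, and Mmp14, its membrane-bound activator, was 2.93-fold higher. Bmp1, which removes the propeptides of Dcn and Bgn products, was 1.44-fold higher. With positive control rows 5 of the 15 and 4 of the 11 were higher, beside 8.45% of all genes.

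Markers of cells that the sort was not meant to keep moved with the SLRP genes. In bulk RNA, more cells of a type and more RNA per cell cannot be told apart. Over all genes, 18.2% were called higher and 32.4% lower. Of 19 fibroblast markers, 17 were higher and 1 lower, with a median difference of 1.92. Their mean signal was 10.23, 9.997 and 10.03 in Dab2-cKO arrays, against 8.02, 8.25 and 8.35 in WT arrays. Cd248, a stromal sialomucin, measured 13.91, 13.35 and 12.88 in Dab2-cKO arrays, against 8.46, 8.71 and 8.74 in WT arrays, 26.8-fold higher. Dpt, dermatopontin, was 21.2-fold, Mfap5 10.5-fold and Loxl1 at least 6.21-fold higher. These are the largest differences of the list, and Sparc was 1.30-fold and Postn 2.22-fold higher. The lower marker was Dpp4, by at least 1.05-fold, under background in the Dab2-cKO arrays (limma adjusted p = 6.4e-04). Sparc, Postn and Dpp4 were named after their values were seen. Fbln1, Pi16, Twist2, Islr and Thy1 were under background in both groups. The part of fibroblast RNA in the SLRP differences was not tested.

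Markers of 4 other cell types were mostly higher in the same arrays, where 18.2% of all genes were called higher and 32.4% lower. All 11 endothelial markers were higher (list mean 7.70 to 7.97 in Dab2-cKO arrays and 5.87 to 5.98 in WT arrays), with Cldn5 at least 16.5-fold higher, and Tie1, Esam, Vwf, Sox17 and Erg under background in both groups. All 11 leukocyte markers were higher (8.90 to 8.998 in Dab2-cKO arrays and 6.11 to 6.28 in WT arrays), with Tyrobp, a myeloid signalling adaptor, at least 23.7-fold higher, and Itgam, Cd3e and Laptm5 under background in both. All 10 skeletal muscle markers were higher (13.61 to 13.84 in Dab2-cKO arrays and 10.83 to 11.21 in WT arrays), with Actn3 22.3-fold higher, and each of the 10 was above background in both groups. Of 11 pericyte and smooth muscle markers 9 were higher and none lower, with means of 8.26 to 8.52 in Dab2-cKO arrays and 6.89 to 7.02 in WT arrays, and Notch3 and Kcnj8 were under background in both. Their part in the SLRP differences was not tested either.

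Of the markers of the sorted cells, 6 of 13 were above background in both groups. Of these bulge and basal keratinocyte markers 7 were higher and 3 lower, beside 18.2% and 32.4% of all genes. List means were 9.75 to 9.90 in Dab2-cKO arrays and 9.34 to 9.50 in WT arrays. Cd34, the surface protein used in the sort, was 5.47-fold higher and Itga6, the other, 2.15-fold. Krt14 was 1.94-fold and Krt15 2.04-fold higher. The 3 lower in Dab2-cKO arrays were Sox9, a bulge transcription factor (at least 1.22-fold), Lhx2 (at least 1.05-fold) and Lgr5. With receptor centring 1 of the 13 was called lower. Krt14, Krt15, Lhx2 and Lgr5 were named after their values were seen. Nfatc1, Lgr5 and Tcf7l2 were under background in both groups, Sox9 and Lhx2 in the Dab2-cKO arrays, and Itgb4 and Col17a1 in the WT arrays. Of 13 dermal papilla markers, 3 were higher and 6 lower, with 12 below background in both groups, beside 18.2% and 32.4% of all genes. With receptor centring 10 were higher and none lower, beside 73.4% and 7.81% of all genes. Crabp1, the only one above background, was 2.26-fold higher.

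**Figure D4:**
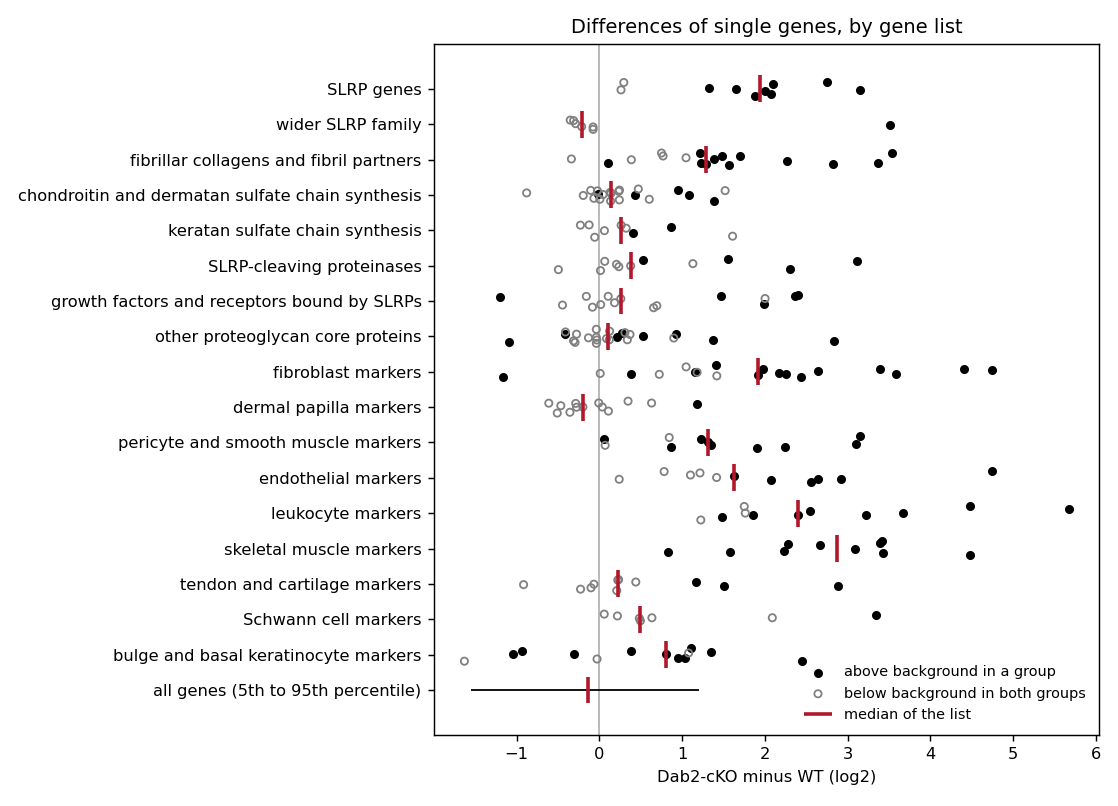
Dab2-cKO minus WT difference in log2 signal (x axis) of each gene, by list (y axis); filled points are genes above background in a group, open points are below it in both groups, red ticks are list medians, and the bottom row gives the 5th to 95th percentile of all genes. The SLRP genes have a median of 1.94, beside 1.92 for fibroblast markers, 2.40 for leukocyte markers, 2.87 for skeletal muscle markers and -0.14 for all genes.

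The SLRP genes were then set against the fibroblast markers, by subtracting each array's mean over the 19 markers, a list that holds no member. On this scale 1.43% of all genes were higher and 96.5% lower in Dab2-cKO arrays (limma). Aspn was higher than the marker mean by 1.27 ± 0.16 (limma adjusted p = 1.2e-06) and Lum by 0.87 ± 0.18 (limma adjusted p = 2.5e-04). These SEs and p-values measure the spread between arrays, not the spread between markers. Before the subtraction, differences of single markers ran from -1.16 for Dpp4 to 4.74 for Cd248. Those of Aspn (3.15) and Lum (2.75) lay within that range. Dcn (-0.23 ± 0.17), Bgn (0.20 ± 0.21) and Ogn (0.12 ± 0.23) did not pass the test. Prelp, Kera and Podn were under background in the WT arrays, so their differences cannot be sized. Fmod and Omd were under it in both groups. Where these 5 stand against the markers cannot be read. Outside the 10, Ecm2 gave 1.63 ± 0.17 on this scale (limma adjusted p = 2.1e-07). It too was under background in WT arrays, so where it stands against the markers cannot be read.

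The marker mean held dim genes, whose differences may be understated. With only the 9 fibroblast markers above background in both groups, chosen after seeing the data, the mean marker difference was 2.53 in place of 1.88, and 0.631% of all genes were called higher and 98.3% lower. Aspn was higher than the mean of those markers, by 0.62 (limma adjusted p = 0.0037). Lum was no longer called (0.22, adjusted p = 0.29). Dcn was called lower (-0.88, limma adjusted p = 1.4e-04), as were Bgn and Ogn, which like Aspn and Lum are above background in both groups.

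WT replicate 1 was the lowest WT array for 7 of the 10 SLRP genes and for 16 of the 19 fibroblast markers. It was also the lowest for 10 of 13 bulge and basal keratinocyte markers, and for 5 of 13 dermal papilla markers. The share over all genes was not worked out, so this is not a trait of the SLRP genes and fibroblast markers alone. Without WT replicate 1, 8 SLRP genes were called higher, beside 4821 of all 30741 genes, the call lost being that of Fmod.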

How the data were processed

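RNA of sorted HFSCs (1 ng per array, GeneChip WT Pico labelling) was hybridised to 6 mouse whole-transcript Affymetrix arrays, 3 of Dab2-cKO and 3 of WT mice, which the labels call biological replicates. The deposited values are log2 signals that the authors made with RMA in Affymetrix Expression Console, which corrects background, quantile normalises and summarises probes, so these values cannot show whether cells held more RNA in all. No source used names the build behind the array annotation. Arrays hold no read depth, and their number limits the precision.

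Of 72688 rows, 6732 were controls, 31295 named 1 gene, 1519 several and 33142 none. The brightest row per gene gave 30741 genes, 30739 of them found in RefSeq. There were 0 further columns of single samples. Genes were fitted with limma 3.58.1 in R 4.3.3 (lmFit and eBayes, Benjamini-Hochberg over all genes, threshold 0.05). Neighbour ratios used an exact two-sided permutation test (scipy 1.17.1). Fits were tested on simulated arrays. The fit without the replicate number was used, since same-numbered arrays did not deviate together. Alternatives were 4 other scalings, a filter at the background level, protein-coding genes alone, the replicate number as a block, a trended robust prior, the dimmest row per gene, each array left out, and a narrower fibroblast list.

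The 10 members and the 16 other gene lists were chosen with earlier results of these data known. Named from each list were up to 4 genes with the largest difference among those called, without overlap and above background in the brighter group. Where none qualified, up to 2 with the largest difference were named. All SLRP genes were named too. Text examples were taken from these, apart from genes said to be named after their values were seen. Cenpp and the genes next to the runs were named for their position. Protein sequences were not analysed here.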

Additional observations from a re-analysis of the deposited data

How the results depend on the processing

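Over the alternatives run, 8 to 10 of the 10 SLRP genes were called higher and none lower. The share of all genes called higher moved widely. It was 8.45% with positive control rows, where 8 members were called, and 73.4% with receptor genes, where all 10 were. The filter at the background level called 3001 of 8828 genes higher, and fits without 1 array 4686 to 5264 of 30741. Dcn, Lum, Bgn, Ogn, Prelp, Aspn, Kera and Podn kept their higher call in all 15. Prelp, Kera and Podn entered the fit filtered at the background level through their Dab2-cKO values alone, so that fit says nothing of their stability. The median difference of the 10, 1.94 as deposited, was 2.14 with arrays centred on the median of all genes, 2.73 on receptor genes and 1.59 on positive control rows, and ran from 1.78 to 2.02 over the fits that left out 1 array. With positive control rows Fmod (-0.051) and Omd (-0.084) turned sign, neither of them called. Omd was called under median, receptor and quantile scaling. The filter at the background level left Fmod and Omd untested. The call of Fmod was lost on leaving out any array other than Dab2-cKO replicate 3.

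The replicate number as a replicate block gave 8 SLRP genes called higher, beside 4704 of all 30741 genes. The median was 1.94, and Fmod was lost (limma adjusted p = 0.063). Same-numbered arrays had deviations that correlated at -0.078, -0.22 and -0.017, so the numbers pair nothing, and no array correlated best with its own number.

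With the 9 brighter fibroblast markers, Bgn (-0.46), Ogn (-0.54), Prelp (-0.44) and Podn (-0.65) were called lower than the marker mean. Against the mean of all 19 they were slightly above it or level with it. Prelp and Podn were under background in WT arrays, so their differences cannot be sized and their calls cannot be read. The mean difference of the brighter markers was 2.53, against 1.88 for all 19.

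Counts over all genes moved most with scaling, from 2599 higher with positive control rows to 22554 with receptor genes, against 5609 as deposited. Calls lower moved likewise, from 15962 to 2400, against 9948. The skeletal muscle and leukocyte counts stayed at 10 and 11 under all scalings, and the endothelial count at 11 except with positive control rows (9). What sets the floor of receptor signal apart between the groups was not tested, and it limits every statement on genes under background.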

Other observations

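Of 24 proteoglycan core protein genes outside the SLRP family 8 were higher and 5 lower in Dab2-cKO arrays, beside 18.2% and 32.4% of all genes, and 16 were under background in both groups. With receptor centring 23 were higher and none lower, beside 73.4% and 7.81% of all genes. Tgfbr3, betaglycan, a coreceptor of TGF-β, measured 10.51, 10.28 and 10.22 in Dab2-cKO arrays, against 7.27, 7.63 and 7.59 in WT arrays, and was 7.16-fold higher (limma adjusted p = 3.2e-05). Hspg2, the basement membrane proteoglycan perlecan, was 2.60-fold and Gpc4, a cell-surface glypican, 1.89-fold higher. Sdc1, the main syndecan of keratinocytes, went the other way, at 7.83, 7.57 and 7.85 in Dab2-cKO arrays, against 8.71, 9.02 and 8.81 in WT arrays, 2.13-fold lower (limma adjusted p = 7.0e-04).

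Tendon and cartilage markers were mostly dim. Of 11 tendon and cartilage markers 5 were higher and 1 lower, beside 18.2% and 32.4% of all genes. With positive control rows 3 were higher, beside 8.45% of all genes, and with receptor genes 10, beside 73.4%. Scx, Mkx, Comp, Col2a1, Sox5, Cilp2, Matn1 and Matn3 were under background in both groups. Cilp measured 8.76, 8.16 and 8.71 in Dab2-cKO arrays, against 5.69, 5.63 and 5.66 in WT arrays, at least 2.43-fold higher. Of 7 Schwann cell markers 5 were higher and none lower, and 6 were under background in both groups. With positive control rows 2 of the 7 were higher, and with receptor genes all 7, beside the same shares of all genes as above. Pmp22, a myelin protein that other cells express too, was the only one above background, at 13.88, 13.46 and 12.59 in Dab2-cKO arrays and 9.36, 10.38 and 10.18 in WT arrays.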
